A study of Bos taurus with 8 samples.

Results

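The genes described here are 8 chemokine ligands, CCL2, CCL3, CCL4, CCL5, CCL8, CCL20, CCL22 and XCL1, and the chemokine receptor CCR3. They were chosen as the array probes whose transcript accession belongs to these 9 genes, which gave 16 probes of the 43653 on the bovine array. Of these, 12 probes of 7 genes passed the filter on dim signals, which kept a probe if some group had it well above background on each of its arrays, and 15137 genes passed it in all. CCL20 and CCL22 did not pass and were not tested. CCL2 passed it only through the normal cows, because 1 of the 4 lame arrays measured it, so the tested genes are not all of the chosen ones.

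The study measured total RNA of peripheral blood mononuclear cells (lymphocytes and monocytes separated from blood) of cows on Agilent arrays in 1 colour. It compared lame crossbred cows on 4 arrays (R1_1, R1_2, R2_1 and R2_2) with normal crossbred cows on 2 arrays (R1 and R2) and normal cows of Tharparkar, an Indian zebu breed, on 2 arrays (R1 and R2). The labels name RNA samples labelled in technical duplicate but do not say how many cows stand behind each array, how old the cows were or what caused the lameness. The titles do not settle which lame arrays share an RNA sample. Read by the number after R, the 8 arrays hold 4 RNA samples, 2 of them lame, which is the reading used here, so the spread between arrays of a normal group may be technical and p-values over arrays are then too small as tests of cows. The comparison of lame crossbred with normal Tharparkar cows differs in both lameness and breed, whose shares cannot be told apart.

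Chemokines are small secreted proteins that direct the migration of leukocytes through G protein-coupled receptors. CC chemokines carry a pair of adjacent cysteines near the amino terminus, whereas XC chemokines such as XCL1 keep fewer cysteines there. In blood, monocytes and cytotoxic lymphocytes are known sources of these ligands, and several of their genes are rapidly switched on by NF-kB when the cells meet bacterial products or cytokines. Receptor signalling runs through inhibitory G proteins and is ended by receptor kinases, arrestins and regulators of G protein signalling.

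Values are the scanner's processed signals on a log2 scale after subtraction of the 75th percentile of the same array, so a probe at 0 was as bright as that percentile, and a value is comparable between arrays but not between probes. On 7 arrays 52.8% to 61.4% of probes were well above background, against 70.9% on lame R2_2, whose median raw signal was 192.5 against 74 to 102 on the others. Over the tested genes, r was 0.981 to 0.997 between arrays of the same title number, 0.951 to 0.97 between lame R1 and lame R2 arrays, and 0.931 to 0.966 across groups. The median SD between duplicate arrays was 0.09, against 0.35 between the lame R1 and lame R2 means. Genes of T cells (14 of 14 on the array), of monocytes (12 of 13), of B cells (5 of 5) and of natural killer cells (15 of 15) passed the filter, and so did 12 of 13 genes of neutrophils, which are not mononuclear cells.

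CCL4 and CCL8 were the members that changed in lame against normal crossbred cows, and both fell, by 2.0 and 1.34 on the log2 scale, in a comparison where 9.61% of all genes passed the test. Against normal Tharparkar cows CCL3, CCL4 and CCL8 fell and XCL1 rose in the lame cows, where 23.3% of all genes passed. CCL2 also passed there as lower, but only 1 lame array measured it and the filter kept it through the normal cows, so its lower values were built into its selection. Between the normal groups, CCL3 was lower and XCL1 higher in the crossbred cows, where 18.6% of all genes passed. The direction of CCL3 turned on its other probe (0.75 between the normal groups and 0.77 for lame against Tharparkar cows), and that of XCL1 turned with normexp background correction (-0.12 and -0.35). CCL5 and CCR3 passed the test in none of the comparisons. These calls come from limma with arrays as observations and Benjamini-Hochberg adjustment over 15137 genes at 0.05, and none of them held when the RNA sample was entered as a random block.

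**Figure D1:**
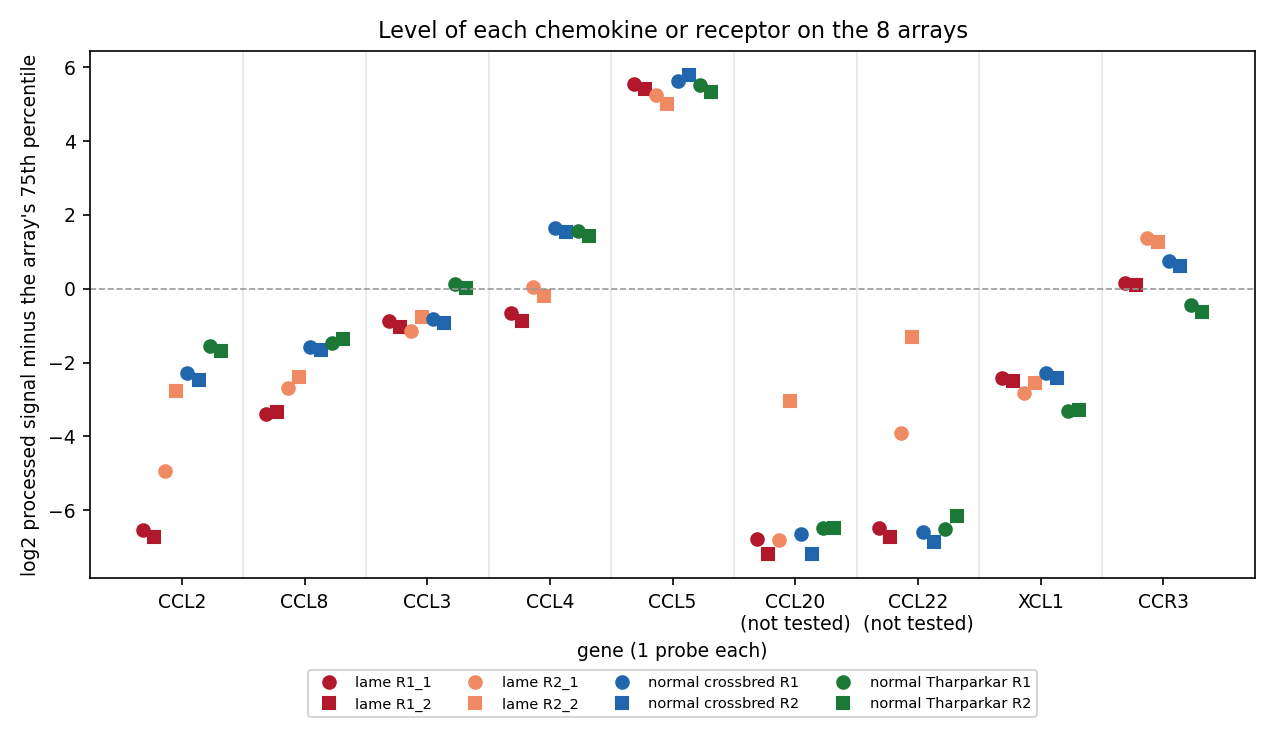
Level of the 9 genes on the 8 arrays, 1 probe a gene, as log2 processed signal relative to the 75th percentile of the array; colours are RNA samples by title, and heights are not to be compared between genes. The 4 lame arrays lie below all 4 normal arrays for CCL2, CCL8 and CCL4. CCL20 stands out on lame R2_2 only, and CCL22 on the lame R2 arrays only.

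CCL4 (macrophage inflammatory protein 1 beta), a chemokine released by activated monocytes, natural killer and T cells, was well above background on all 8 arrays. Its level was -0.65 and -0.87 on lame R1_1 and R1_2, 0.05 and -0.19 on lame R2_1 and R2_2, 1.64 and 1.53 on the normal crossbred arrays and 1.57 and 1.43 on the Tharparkar arrays. All lame arrays lay below all normal arrays, and the normal groups were close to each other. The group means were -0.42 ± 0.42 (SD, n = 4), 1.59 ± 0.08 (SD, n = 2) and 1.5 ± 0.10 (SD, n = 2). CCL4 was 4.01-fold lower in lame than in normal crossbred cows (log2 difference -2.0, SE 0.26, limma adjusted p = 0.00552). It was 3.78-fold lower than in Tharparkar cows (-1.92, SE 0.26, limma adjusted p = 0.00312). The normal groups differed by 0.08 (limma adjusted p = 0.878).

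The fall of CCL4 was -2.35 with the lame R1 arrays alone and -1.66 with the lame R2 arrays alone, and -1.94 and -2.06 within slide 1 and slide 2. A second CCL4 probe fell by 1.77 against normal crossbred cows (limma adjusted p = 0.00813) and by 1.29 against Tharparkar cows (limma adjusted p = 0.0112). The call against normal crossbred cows was lost without normal crossbred R1 (limma adjusted p = 0.0861) or R2 (0.0679), and with the RNA sample as a random block limma gave adjusted p = 0.149 and 0.0882 for the lame differences.

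CCL8 (monocyte chemoattractant protein 2) is a relative of CCL2 that attracts monocytes and other leukocytes. Its level was -3.39 and -3.35 on lame R1_1 and R1_2, -2.70 and -2.40 on lame R2_1 and R2_2, -1.57 and -1.67 on the normal crossbred arrays and -1.46 and -1.36 on the Tharparkar arrays. Lame and normal arrays did not overlap, and the lame R1 arrays were the lowest. CCL8 was 2.53-fold lower in lame than in normal crossbred cows (-1.34, SE 0.30, limma adjusted p = 0.0335) and 2.93-fold lower than in Tharparkar cows (-1.55, SE 0.30, limma adjusted p = 0.0106). The normal groups differed by -0.21 (limma adjusted p = 0.715).

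A dimmer CCL8 probe, below the background limit on lame R2_2, read -3.97, -3.72, -3.52 and -5.37 on lame R1_1, R1_2, R2_1 and R2_2, -2.09 and -2.24 on the normal crossbred arrays and -2.34 and -2.30 on the Tharparkar arrays. It gave the same order of lame and normal arrays, with a difference of -1.98 from normal crossbred (limma adjusted p = 0.0527) and of -1.83 from Tharparkar cows (limma adjusted p = 0.0351). The call of CCL8 against normal crossbred cows was lost in 12 of 24 alternatives, among them leaving out any array but lame R2_1 and R2_2 (adjusted p = 0.0551 to 0.261), the slide as a block (limma adjusted p = 0.0653) and the RNA sample as a random block (0.407). With normexp background correction the difference was -0.73. The call against Tharparkar cows was lost without Tharparkar R1 (limma adjusted p = 0.0819) or R2 (0.0915).

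CCL2 (monocyte chemoattractant protein 1), the ligand of CCR2 that draws monocytes out of the marrow and into inflamed tissue, had the widest spread between lame arrays among the 7 tested members. Its level was -6.54 and -6.73 on lame R1_1 and R1_2, -4.94 on lame R2_1 and -2.78 on lame R2_2, of which only the last was well above background. It was -2.29 and -2.47 on the normal crossbred arrays and -1.55 and -1.70 on the Tharparkar arrays, all well above background. Lame and normal arrays did not overlap, but lame R2_2 lay close to the normal crossbred arrays. The difference from normal crossbred cows was -2.87 (SE 1.02, limma adjusted p = 0.129) with all 4 lame arrays. It was -3.69 without lame R2_2 (limma adjusted p = 0.00798) and -0.75 with normexp background correction (limma adjusted p = 0.123). The difference from Tharparkar cows was -3.62 (SE 1.02, limma adjusted p = 0.0414), or -1.30 with normexp. These differences set 3 lame signals that were not well above background at their face value, for a gene kept through the groups where it is high, and are no measure of its fold.

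Because 3 lame arrays gave only a bound, each was also set to the higher of its own signal and the lowest signal well above background on that array, with lame R2_2 at its own signal. CCL2 was then at least 3.52-fold lower in lame than in normal crossbred cows and at least 5.94-fold lower than in Tharparkar cows, bounds that carry no test. Over the 3 lame arrays without lame R2_2 the same bounds were 4.88-fold and 8.24-fold. The call against Tharparkar cows was lost in 11 of 22 alternatives with a test, among them the slide as a block (limma adjusted p = 0.0688) and leaving out any array but lame R2_2 (0.0654 to 0.21). A second CCL2 probe was well above background on none of the 8 arrays, so CCL2 rests on 1 probe.

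CCL3 (macrophage inflammatory protein 1 alpha), a ligand of CCR1, separated the breeds and not the lame from the normal crossbred cows on its brighter probe. Its level was -0.87, -1.03, -1.14 and -0.77 on lame R1_1, R1_2, R2_1 and R2_2, -0.81 and -0.94 on the normal crossbred arrays, and 0.14 and 0.03 on the Tharparkar arrays. All 6 crossbred arrays lay below both Tharparkar arrays, and the lame and normal crossbred arrays overlapped. CCL3 was 2.05-fold lower in lame crossbred than in Tharparkar cows (-1.04, SE 0.16, limma adjusted p = 0.0043) and 1.94-fold lower in normal crossbred than in Tharparkar cows (-0.95, SE 0.18, limma adjusted p = 0.0117). Lame and normal crossbred cows differed by -0.08 (limma adjusted p = 0.795). The call between the normal groups was lost when any of their 4 arrays was left out (limma adjusted p = 0.0718 to 0.104) and with normexp (0.0783), and that of lame against Tharparkar cows without Tharparkar R1 (0.0616).

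The other CCL3 probe went the opposite way. It read -2.72, -2.94, -3.41 and -2.44 on the lame arrays in the same order, -2.79 and -3.0 on the normal crossbred arrays, and -3.47 and -3.82 on the Tharparkar arrays, where R2 was not well above background. Its differences from Tharparkar cows were 0.77 for lame (limma adjusted p = 0.0858) and 0.75 for normal crossbred cows (limma adjusted p = 0.148). With the mean of both probes the differences were -0.13 and -0.10, and neither passed the test, so the direction of CCL3 depends on the probe.

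CCL5 (RANTES), a ligand of CCR1 and CCR3 made in quantity by cytotoxic T and natural killer cells, was measured by 3 probes on all arrays. The brightest read 5.55, 5.42, 5.24 and 5.0 on lame R1_1, R1_2, R2_1 and R2_2, 5.64 and 5.80 on the normal crossbred arrays and 5.52 and 5.33 on the Tharparkar arrays. The lame arrays lay below the normal crossbred arrays and overlapped the Tharparkar arrays. The difference was -0.42 from normal crossbred cows (SE 0.19, limma adjusted p = 0.212), -0.12 between lame and Tharparkar cows, and 0.30 between the normal groups. The small difference between lame and Tharparkar cows turned to 0.20 with quantile normalization and to 0.15 with normexp. Quantile normalization also made the difference between the normal groups pass the test (0.51, limma adjusted p = 0.0479), as the lame R2 arrays alone did for the difference from normal crossbred cows (-0.60, limma adjusted p = 0.021).

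The other CCL5 probes divided the lame RNA samples. The second read 3.74 and 3.43 on lame R1_1 and R1_2 against 4.97 and 4.83 on lame R2_1 and R2_2, with 5.28 and 5.07 on the normal crossbred and 4.59 and 4.35 on the Tharparkar arrays. The third read 2.16, 2.20, 3.36 and 3.06 on the lame arrays in that order, 3.66 on both normal crossbred arrays, and 2.70 and 2.78 on the Tharparkar arrays. On both, lame R1 was below Tharparkar, lame R2 above it, and the normal crossbred arrays were highest. Neither passed the test between lame and normal crossbred cows (-0.93 and -0.97, limma adjusted p = 0.258 and 0.156).

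**Figure D2:**
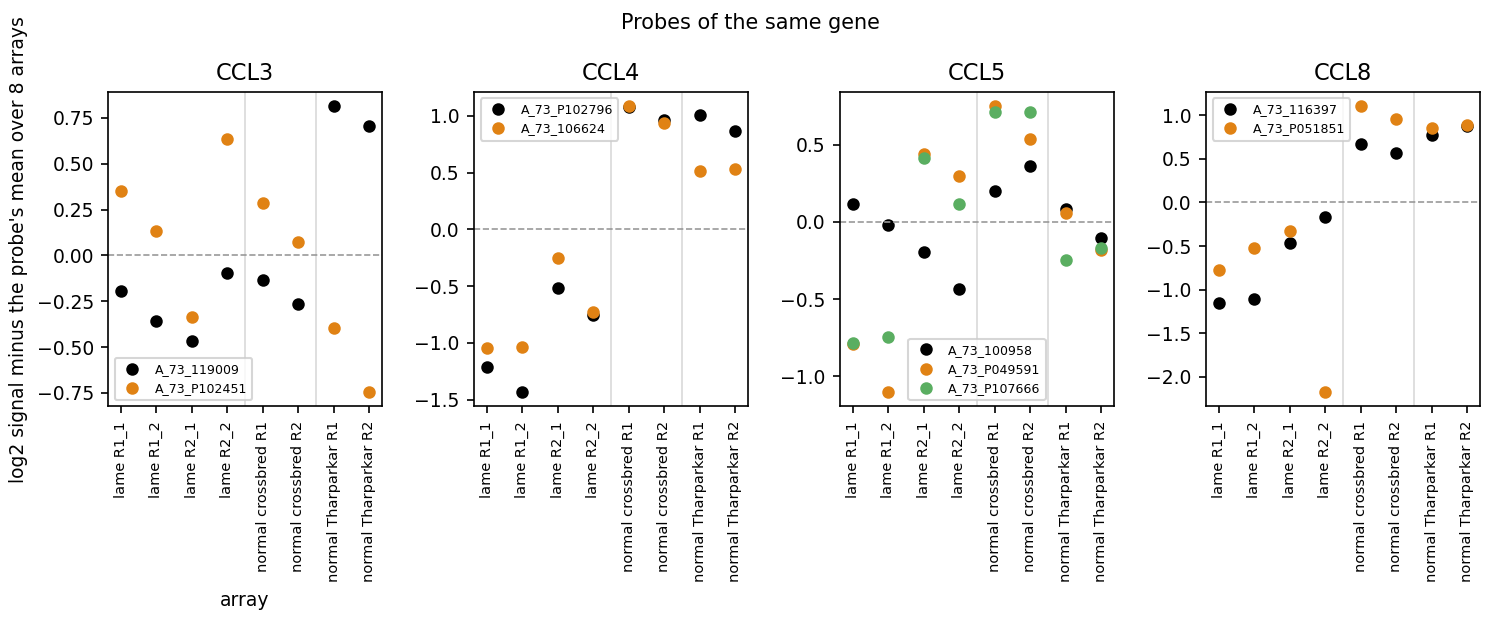
Probes of 1 gene on the 8 arrays, each as its log2 value minus its mean over the arrays, for the 4 genes with several probes that passed the filter. The probes of CCL4 and of CCL8 place the lame arrays below the normal ones, whereas the CCL3 probes go opposite ways and 1 of the 3 CCL5 probes does not share the low values on lame R1_1 and R1_2.

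CCL20, the ligand of CCR6, was above background on lame R2_2 alone, at -3.03, and read -7.20 to -6.48 on the other 7 arrays, where it was not well above background. CCL22, a ligand of CCR4 produced by dendritic cells and macrophages, was measured by 2 probes. The first read -1.31 on lame R2_2 and -3.91 on lame R2_1, both well above background, against -6.86 to -6.17 on the other 6 arrays. The second read -2.79 on lame R2_2, its only array above background, against -6.82 to -5.85 elsewhere. Both genes thus appeared on lame R2 arrays only, CCL20 on lame R2_2 alone and CCL22 on both R2 arrays by 1 of its 2 probes. That array, lame R2_2, is also the one with the highest raw signals, whose part in these readings was not tested.

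XCL1 (lymphotactin), secreted by natural killer and CD8 T cells and read by XCR1 on cross-presenting dendritic cells, had 1 probe. Its level was -2.42, -2.50, -2.82 and -2.55 on lame R1_1, R1_2, R2_1 and R2_2, -2.29 and -2.43 on the normal crossbred arrays, and -3.31 and -3.30 on the Tharparkar arrays. All crossbred arrays lay above the Tharparkar arrays, and lame and normal crossbred arrays overlapped. XCL1 was 1.66-fold higher in lame crossbred than in Tharparkar cows (0.73, SE 0.16, limma adjusted p = 0.016) and 1.92-fold higher in normal crossbred than in Tharparkar cows (0.94, SE 0.18, limma adjusted p = 0.0126), but normexp background correction turned these to -0.35 and -0.12. Quantile normalization left 0.02 for lame against Tharparkar cows (limma adjusted p = 0.983). The call between the normal groups was lost when any of their 4 arrays was left out (limma adjusted p = 0.0769 to 0.11), and that of lame against Tharparkar cows without Tharparkar R1 (0.13) or R2 (0.12). Lame and normal crossbred cows differed by -0.21 (limma adjusted p = 0.453).

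CCR3, the receptor of eotaxins and CCL5 that marks eosinophils and basophils, had 1 probe, well above background on all arrays. Its level was 0.16 and 0.11 on lame R1_1 and R1_2, 1.38 and 1.28 on lame R2_1 and R2_2, 0.74 and 0.62 on the normal crossbred arrays and -0.45 and -0.63 on the Tharparkar arrays. The normal crossbred arrays lay between the lame RNA samples, and the Tharparkar arrays were the lowest. The lame mean of 0.74 ± 0.69 (SD, n = 4) and the normal crossbred mean of 0.68 ± 0.09 (SD, n = 2) differed by 0.06 (limma adjusted p = 0.954), which was -0.54 with the lame R1 arrays alone and 0.66 with the lame R2 arrays alone. The differences from Tharparkar cows were 1.28 for lame (SE 0.40, limma adjusted p = 0.0587) and 1.22 for normal crossbred cows (SE 0.47, limma adjusted p = 0.113). The first passed the test in 8 of 23 alternatives, among them the replicate block (limma adjusted p = 0.0371). That block joins the lame R1 arrays with the R1 arrays of the normal cows, a pairing the labels do not state.

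**Figure D3:**
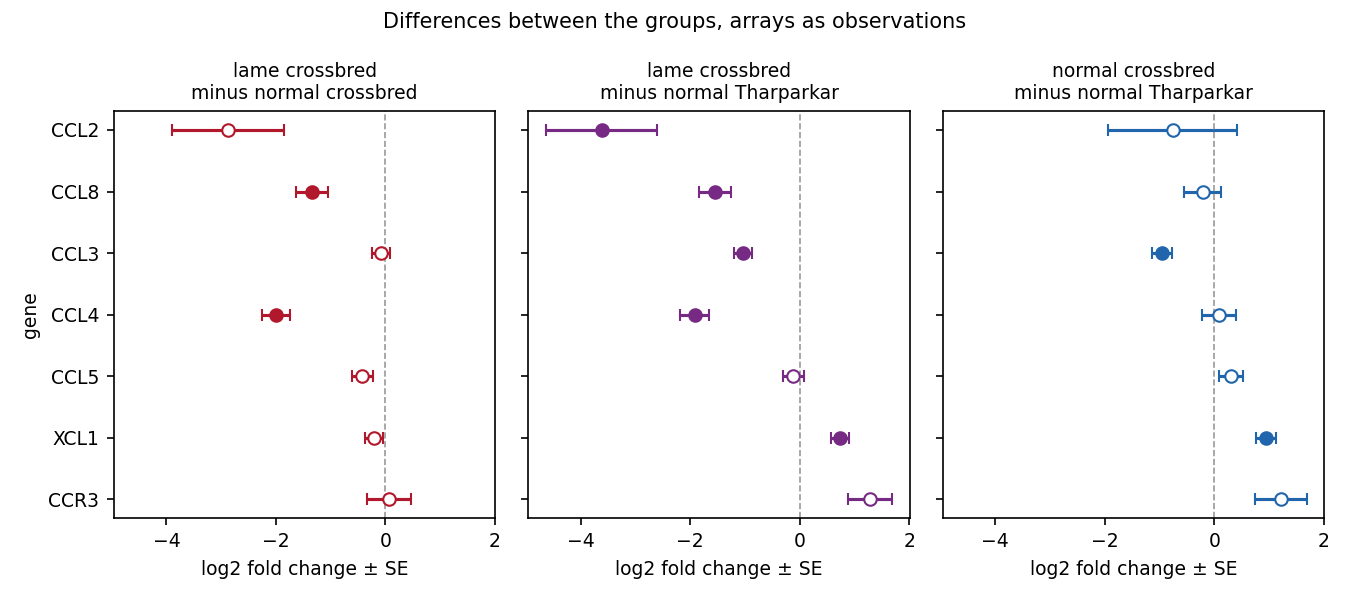
Log2 fold change ± SE of the 7 tested genes in each comparison, from limma with arrays as observations; filled points have an adjusted p under 0.05 and open points do not. CCL2, CCL8 and CCL4 lie left of 0 in both lame comparisons, CCL3 lies left of 0 in both crossbred groups against Tharparkar cows on this probe while its other probe read 0.77 and 0.75, CCL2 rests on 1 measured lame array, and XCL1 lies right of 0 against Tharparkar cows with this scaling, a direction that turned with normexp.

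In lame against normal crossbred cows, 2 of the 7 tested members passed the test, both lower, where 9.61% of all genes passed, 6.32% as lower and 3.3% as higher. In 4 of 7 members (CCL2, CCL4, CCL5 and CCL8) all lame arrays lay below all normal crossbred arrays, which held for 23.1% of all genes (38.8% in either direction). CCL2 adds nothing to that count, since it was kept through the groups where it is high. In normal crossbred against Tharparkar cows, 2 of 7 passed, 1 in each direction, against 18.6% of all genes, or 11.7% higher and 6.91% lower. In 6 of 7 members these groups, of 2 arrays each, did not overlap, against 81.9% of all genes. In lame crossbred against Tharparkar cows, 5 of 7 passed, 4 lower and 1 higher, against 23.3% of all genes (10.8% lower and 12.5% higher). Of the 4 lower, CCL2 is again given by its selection. There 6 of 7 did not overlap, CCL2 included, against 50% of all genes. The median log2 difference of the tested members was -0.42, 0.08 and -1.04 in these comparisons, beside -0.04, 0.01 and -0.01 over all genes. Both lame medians include CCL2, whose lower values were built into its selection, and no median was taken without it. The comparisons share arrays and are no repeats of each other. The members were chosen with earlier results of these data known, so these counts are no test of the members as a set.

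With the RNA sample as a random block (consensus correlation 0.82), 0 members passed in limma in any comparison, where 0.152%, 0.634% and 1.35% of all genes did, in the same order. At an unadjusted p under 0.05 that fit called 2, 1 and 4 of 7 members, against 7.84%, 12.2% and 14.4% of all genes, and the lowest adjusted p of a member was 0.149, 0.373 and 0.0882.

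In the RefSeq gene table, CCL2, CCL3, CCL4, CCL5 and CCL8 all lie on bovine chromosome 19. Between CCL4 and CCL3 lies 1 other protein-coding gene, and between CCL8 and CCL2 lies only CCL11, which was well above background on 1 array. CCL4 and CCL3 are thus near neighbours of which the first separated lame from normal cows and the second did not. CCL20, CCL22, XCL1 and CCR3 lie on chromosomes 2, 18, 16 and 22.

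Over the 8 arrays, which share 4 RNA samples, the named genes whose profile was most like that of each member were found by Pearson's r of the log2 values, as a description. CCL8 was likest to CD69, a surface marker of early lymphocyte activation (r = 0.994), and then to RNF11 (0.99). CCL4 was likest to ALG10 (0.991) and then to CD14, the monocyte coreceptor for lipopolysaccharide (0.99). CD14 was the 1 monocyte gene of 12 called lower in lame than in normal crossbred cows, where 4 were called higher. CCL3 was likest to the cannabinoid receptor gene CNR2 (0.998) and to the class II gene BOLA-DYB (0.995). CCR3 was likest to ANG, a secreted ribonuclease (0.995), and GMPR (0.994). The likest genes were PRR5L (0.981) and SCN2B (0.979) for CCL2, TPPP (0.983) and TFCP2 (0.978) for CCL5, and CHDH (0.979) and ZNF410 (0.978) for XCL1.

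Of 14 other CC and XC ligands listed, 8 were on the array and 2, CCL19 and CCL25, passed the filter. CCL19, which guides T cells and dendritic cells through CCR7, differed by 0.05 between lame and normal crossbred cows (limma adjusted p = 0.948). CCL25, the gut homing ligand of CCR9, differed by 0.21 (limma adjusted p = 0.751). Neither passed in any comparison, and neither did at an unadjusted p under 0.05. CCL14, CCL21 and CCL24 were well above background on none of the 8 arrays, CCL11 and CCL28 on 1 lame array each, and CCL26 on 2 lame arrays.

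Of 14 receptors on the array besides CCR3, 9 passed the filter. Against normal crossbred cows, 4 of the 9 fell in the lame cows and 0 rose, with a median of -1.04 against -0.04 over all genes, of which 6.32% fell and 3.3% rose. ACKR3 is among those that fell, and the median is its own value. It was kept through the group where it is high, so count and median both depend on its selection. The median also includes CCR8 (-1.2) and CCR9 (-1.5), which were not called. Both read below the lowest signal well above background on lame R1_1 and R1_2. They were thus kept through normal arrays, where they are high, and no median was taken without these receptors. Leaving out normal crossbred R1 or R2 gave 0 calls, and the mean of a gene's probes or no filter on dim probes gave 1. CCR1, the receptor of CCL3 and CCL5 on monocytes, fell by 1.17 (SE 0.15, limma adjusted p = 0.00443). A second CCR1 probe read -0.87 and did not pass (limma adjusted p = 0.412). On the first probe the level was 2.73, 2.79, 3.07 and 2.96 on lame R1_1, R1_2, R2_1 and R2_2, 4.03 and 4.08 on the normal crossbred and 4.74 on both Tharparkar arrays. Each lame array lay below each normal array, and the normal crossbred arrays below the Tharparkar ones.

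CCRL2, an atypical receptor that binds chemerin, fell by 1.54 (SE 0.24, limma adjusted p = 0.0108), where its second probe read -1.38 (limma adjusted p = 0.0968). CCR4, the receptor of CCL22 on T helper and regulatory T cells, fell by 0.79 (SE 0.15, limma adjusted p = 0.0206), where its second probe read -0.17 (limma adjusted p = 0.881). The scavenging receptor ACKR3 also passed as lower (-1.04, SE 0.22, limma adjusted p = 0.0306), but it was well above background on 2 of the 4 lame, both normal crossbred and neither of the Tharparkar arrays, so it was kept through the group where it is high. With dim arrays at the lowest signal well above background it was at least 1.74-fold lower than in normal crossbred cows. A second ACKR3 probe read -1.01 and did not pass (limma adjusted p = 0.313). With quantile normalization or normexp 2 of the 9 fell in place of 4, and with the RNA sample as a random block 0 did. CCR2, the receptor of CCL2, differed by 1.11 (SE 0.59, limma adjusted p = 0.29) and was well above background on 1 of the 2 normal crossbred arrays. CCR6 and ACKR4 were above background on no array, and XCR1, the receptor of XCL1, on 1 lame array.

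Against Tharparkar cows, CCR1 fell in lame cows by 1.85 (SE 0.15, limma adjusted p = 0.000381), the only receptor call kept with the RNA sample as a random block (limma adjusted p = 0.0235). CCRL2 fell there by 1.06 (SE 0.24, limma adjusted p = 0.0208). CCR4 rose by 0.61 (limma adjusted p = 0.0261), but was at -0.18 with normexp. ACKR3 passed as higher as well, but against Tharparkar arrays that did not measure it, and its bound left no fold. Leaving out Tharparkar R1 or R2 left 1 of these 4 receptor calls. In normal crossbred against Tharparkar cows, CCR1 differed by -0.68 (limma adjusted p = 0.0318) and CCR4 by 1.40 (0.00259). Their second probes read -2.26 and 0.63, and neither passed (limma adjusted p = 0.0596 and 0.521). ACKR3 differed between these groups by 1.87 at face value (limma adjusted p = 0.00373), against arrays below background, and by -0.40 with normexp. Its bound was at least 1.82-fold higher and carries no test. It was kept through the normal crossbred arrays, where it is high. With quantile normalization or normexp 0 of the 9 receptors passed between the normal groups.

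Of 23 genes of receptor signalling on the array, all passed the filter. In lame against normal crossbred cows 1 rose and 2 fell, in lame crossbred against Tharparkar cows 2 rose and 6 fell, and in normal crossbred against Tharparkar cows 1 was higher and 5 lower. Over all genes 9.61%, 23.3% and 18.6% passed in these comparisons. Leaving out any 1 of the normal arrays left 1 signalling gene between the normal groups, leaving out normal crossbred R1 or R2 left 1 against normal crossbred cows, and leaving out Tharparkar R1 or R2 left 3 and 2 against Tharparkar cows. RGS1, which shortens chemokine receptor signals in lymphocytes, fell by 1.49 against normal crossbred cows (SE 0.15, limma adjusted p = 0.00158) and by 1.80 against Tharparkar cows (SE 0.15, limma adjusted p = 0.000392). RGS16, of the same family, fell by 0.88 (limma adjusted p = 0.0381) and by 1.82 (limma adjusted p = 0.00137). With the RNA sample as a random block 1 call remained in limma, RGS1 against Tharparkar cows (adjusted p = 0.0326).

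ARRB1, an arrestin that uncouples and internalises receptors, was lower in both crossbred groups than in Tharparkar cows, with log2 differences of -2.43 in normal (limma adjusted p = 0.0026) and -1.57 in lame cows (limma adjusted p = 0.00649), the same direction on all 3 of its probes. The receptor kinase GRK6 was lower in normal crossbred than in Tharparkar cows (-1.60, limma adjusted p = 0.0216). GRK5 was also lower there (-1.33, limma adjusted p = 0.048), but a second GRK5 probe read 2.06 in the other direction and passed (limma adjusted p = 0.00243). With every probe in its own row, the first did not pass (limma adjusted p = 0.0512). The second probe also passed as higher in lame than in Tharparkar cows (limma adjusted p = 0.000315), where the first read -0.38. Against normal crossbred cows the second read 0.94 (limma adjusted p = 0.0392) and the first 0.95 (0.134). The direction of GRK5 against Tharparkar cows thus depends on the probe. GNAI1, an inhibitory G protein subunit, differed by 2.07 at face value between lame and Tharparkar cows (limma adjusted p = 0.0203), and by -0.43 with normexp. Neither Tharparkar array had it well above background. With those arrays at the lowest signal well above background it was at least 1.61-fold higher, a bound that carries no test. The filter kept GNAI1 through the lame arrays, so its rise, counted above, was built into its selection.

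Of 9 tested NF-kB subunits and inhibitors, 3 fell and 0 rose in lame against normal crossbred cows, 3 fell and 1 rose against Tharparkar cows, and 0 passed between the normal groups in limma (1 at an unadjusted p under 0.05, and 1 adjusted with quantile normalization). Over all genes 9.61% and 23.3% passed in the lame comparisons. The 3 that fell against normal crossbred cows became 0 without normal crossbred R1 or R2 or with no filter, and 1 with normexp or the mean of probes. NFKBIZ, a nuclear inhibitor protein induced by NF-kB, fell by 1.09 (SE 0.19, limma adjusted p = 0.014) and by 1.39 against Tharparkar cows (limma adjusted p = 0.00291), where its second probe read -0.43 and -0.84 and did not pass. NFKBIA, which holds NF-kB in the cytoplasm, fell by 0.78 (limma adjusted p = 0.0329) and by 0.76 (limma adjusted p = 0.019), but 1 of its 4 probes read 0.00 and 0.26. RELA, the p65 subunit, fell by 0.59 and 0.97 on the probe that stood for it (limma adjusted p = 0.0382 and 0.00333), whereas the mean of its 4 probes was 0.11 against normal crossbred cows. NFKBIE rose by 0.84 against Tharparkar cows (limma adjusted p = 0.00868), and its second probe read -0.43. None of the NF-kB calls held with the RNA sample as a random block.

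**Figure D4:**
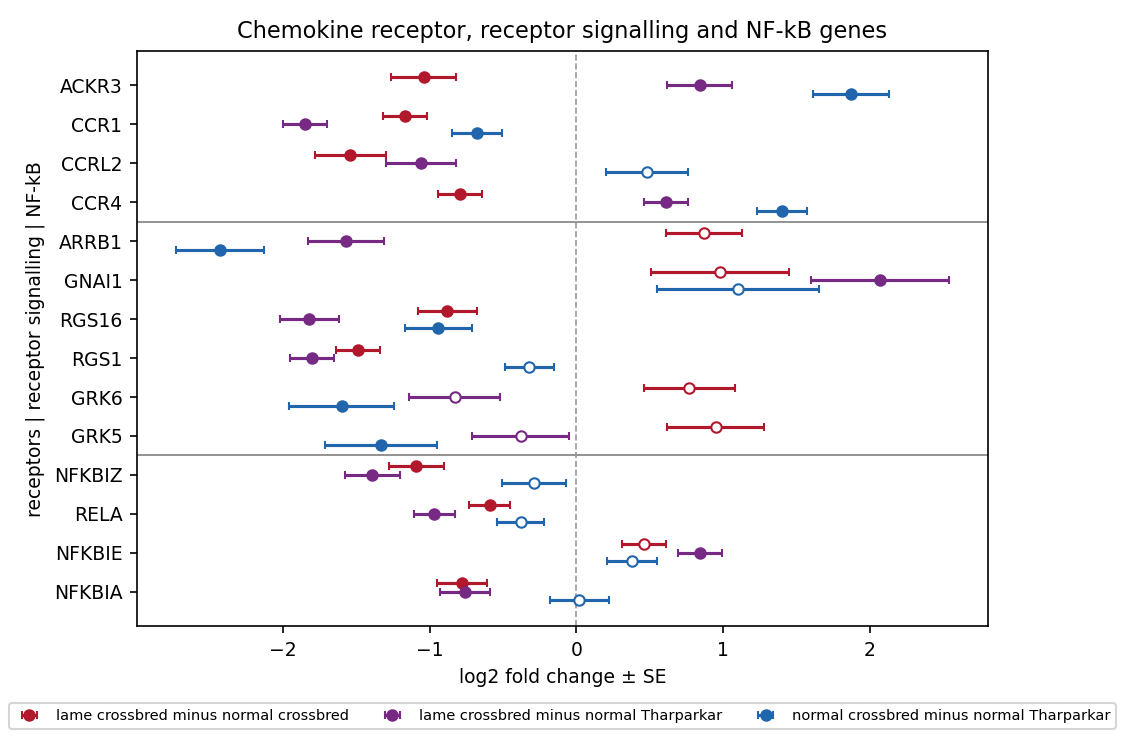
Log2 fold change ± SE of the receptor, receptor signalling and NF-kB genes described in the text, from limma with arrays as observations; filled points have an adjusted p under 0.05. CCR1, CCRL2, RGS1 and NFKBIZ lie left of 0 in both lame comparisons, while ACKR3, CCR4 and GNAI1 lie right of 0 in lame against Tharparkar cows, a direction that turned with normexp for all 3; ACKR3 and GNAI1 were not well above background on the Tharparkar arrays.

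Marker genes of several blood cells also differed between the groups, and in RNA of mixed cells fewer cells of a type and less RNA per cell cannot be told apart. Beside CCL2, CCL4, CCL8 and CCR1, summed signals of 12 monocyte genes, in multiples of the array's 75th percentile signal, were 81.6 to 103 on the lame, 67.2 to 67.4 on the normal crossbred and 62.1 to 63.3 on the Tharparkar arrays. The sum was 85 and 81.6 on lame R1_1 and R1_2 and 103 and 101 on lame R2_1 and R2_2. Such sums weigh most on the brightest probes. As values are not comparable between probes, they are no measure of cell numbers. Of the 12 monocyte genes, 4 rose and 1, CD14, fell in lame against normal crossbred cows, where 3.3% of all genes rose and 6.32% fell. Summed signals of 12 neutrophil genes were 155 to 203, 232 to 244 and 256 to 266 in the same order, lowest in the lame cows, and 7 of the 12 fell against each normal group, beside 6.32% and 10.8% of all genes. CXCR2, counted among the 7, read below the lowest signal well above background on lame R2_1 and R2_2. It was kept through the normal groups, where it is high, so its fall was built into its selection. The brightest neutrophil probes, S100A8 and S100A12, passed the test in neither lame comparison. The part of monocytes and neutrophils in the chemokine differences was not tested.

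Beside CCL5 and XCL1, the sum of 15 natural killer and cytotoxic genes was 52.5 to 96.6 on the lame, 155 to 168 on the normal crossbred and 65.6 to 70.4 on the Tharparkar arrays. The sum of 14 T cell genes was 50.1 to 52.9, 82.0 to 85.8 and 42.7 to 43.8. Both sums were highest in the normal crossbred cows, where 8 of 15 cytotoxic and 9 of 14 T cell genes were higher and 0 and 1 lower than in Tharparkar cows, beside 11.7% and 6.91% of all genes. KLRD1 and EOMES, counted among the 8, read below the lowest signal well above background on both Tharparkar arrays. They were kept through crossbred arrays, where they are high, so their higher values were built into their selection. Beside CCR3, 3 of 7 eosinophil and basophil genes on the array (ALOX15, HDC and CEBPE) passed the filter, with sums of 5.14 and 5.83 on lame R1_1 and R1_2, 8.7 and 8.96 on lame R2_1 and R2_2, 17.5 and 18.3 on the normal crossbred and 4.17 and 4.64 on the Tharparkar arrays. CPA3 and ENPP3 were above background on no array. The part of these cells in the values was not tested.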

How the data were processed

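The authors deposited Agilent scanner files and a table of processed values. Processed signal intensity and flags were taken from the scanner files, extracted with Agilent Feature Extraction 12.0.3.1 per the file headers (11.5.1.1 per the submitters' processing notes). The authors' deposited table is on a log2 scale, equal to the values used here minus each probe's median, with column medians of -0.13 to 0.88. Intensities were set to log2, the array's 75th percentile over noncontrol probes was subtracted, spots of a probe were averaged and 35 probes with outlier flags were left out. Probes were named by accession through the RefSeq table (ARS-UCD2.0, names and gene order only): 27054 matched and 16599 kept the file's name. The array's own annotation build is bosTau6. The probe with the highest mean stood for a gene. All 8 arrays were fitted with limma 3.58.1 (3 group means, residual df 5, prior df 2.34), 2-sided, Benjamini-Hochberg over 15137 genes, and the fit was tested on simulated data. The simulated arrays were drawn independently, so that test does not cover arrays that share an RNA sample. The number of arrays limits the precision, and no probe was saturated.

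Named genes are the members, the 6 genes of each pathway list with the largest change among those past the test, and the 2 likest genes with a RefSeq symbol for each member. Members and lists were chosen with earlier results of these data known. Normexp (offset 50) used the median signal and background columns. Labels do not say that replicate numbers pair the normal arrays, and with 2 pairs no pairing was decided.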

Additional observations from a re-analysis of the deposited data

How the results depend on the processing

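Alternatives changed 1 choice at a time. A normal group left with 1 array was assumed to vary like the other groups. In lame against normal crossbred cows, the members called (2) became 1 with no filter on dim probes, with a slide block, with duplicates averaged and with only the compared groups in the fit, 0 with the RNA sample as a random block, 4 with the lame R1 arrays alone and 4 with lame R2 alone. Genes called (1455) became 356, 718, 167 and 23 with no filter, compared groups only, averaged duplicates and the random block, 633 with normexp, and 7166 and 6997 with lame R1 or R2 alone. Leaving out 1 array gave 0 to 3 members and 179 to 1810 genes. Between the normal groups, the members called (2) became 0 with normexp, no filter, averaged duplicates or the random block, 1 with the mean of probes and 4 with only these groups. Genes called (2821) became 1311, 995, 373 and 96 in those first 4 settings, 8714 with only these groups and 4359 counted as probes. Leaving out 1 array gave 0 to 2 members and 714 to 3981 genes. In lame crossbred against Tharparkar cows, the members called (5) became 3 with no filter, 1 with averaged duplicates and 0 with the random block. Genes called (3521) became 1358, 531 and 205 in these, 2000 with normexp, 2310 with only these groups, 8377 and 8807 with lame R1 or R2 alone and 5327 counted as probes. Leaving out 1 array gave 1 to 5 members and 852 to 3910 genes. Normexp moved the split of higher and lower genes from 499 and 956 to 137 and 496 in the first comparison and from 1891 and 1630 to 733 and 1267 in the last, where it also moved the median of all genes to -0.16. The replicate block by the number after R, with which same-numbered normal arrays deviated together at r = 0.24, gave 2, 2 and 6 members. In both normal groups R1 lay on slide 1 and R2 on slide 2, so that r cannot be told from a slide difference. The block also takes up the difference between the lame R1 and lame R2 arrays.

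Averaging duplicates gave each gene the same spread, and its 1 call in each lame comparison was CCL2. Averaged by the last number of the lame titles, the other reading of the duplicates, 3, 3 and 6 members and 1364, 3191 and 4105 genes were called. Directions turned for CCR3 between lame and normal crossbred cows (-0.54 with lame R1 alone, -0.16 to 0.27 when 1 array was left out), for CCL3 on its other probe (0.02, 0.75 and 0.77), for XCL1 with normexp (-0.12 and -0.35), for CCL8 between the normal groups on its other probe (0.15), and for CCL5 between lame and Tharparkar cows (0.20, 0.15 and 0.06 with quantile normalization, normexp and lame R1 alone). CCL4 kept its sign in every alternative run. CCL2 did as well, but the filter kept it through the normal cows, so its sign in the lame comparisons was built into its selection. Its second probe, well above background on no array, was not among the alternatives. The causes were not tested. Dim probes such as those of XCL1 and CCL2 rest on signals near background, and 4 RNA samples cannot give the spread between cows.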
